A study of Mus musculus with 4 samples.

Results

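Erythroid-primed cells of mouse bone marrow were described here: the rare cells of a sorted stem and progenitor population that already carried messages of Klf1 and Gata1, the transcription factors that start the red cell program. A cell was a member when it held at least 1 unique molecular identifier (UMI, 1 counted message) of Klf1, at least 1 of Gata1, fewer than 3 of Pf4, a platelet chemokine, and 0 of Dntt, a lymphoid enzyme. This gave 150 members among 10351 cells that passed the cell filter, out of 12355 barcodes in the whole series. The members were 40 of 3193 cells in the library called WT and 110 of 7158 cells in the library called KO. The other 10201 cells of both libraries are called the other KLS cells.

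The sort took KLS cells, which carry c-Kit and Sca-1 and lack lineage antigens: Ter119 of erythroid cells, CD3, CD4 and CD8a of T cells, B220 of B cells, and Mac-1 and Gr-1 of myeloid cells. WT mice were Vav1-Cre/+STAT5ab+/+ and KO mice were Vav1-Cre/+STAT5abfl/fl, so both genotypes carried Vav1-Cre, a recombinase driven in blood cells, and only the KO mice carried floxed Stat5a and Stat5b. Marrow for the KLS sort was from 4 mice, aged 8 to 12 weeks, and the labels name neither single mice, nor pooling, nor batches. Sequencing of single cells in droplets (10x Chromium, counting 3′ ends) gave 1 library per group, so no difference between genotypes has a replicate check, no p-value was computed, and each interval covers counting error only.

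As background, KLF1 and GATA1 activate genes of heme synthesis, the membrane skeleton, blood group antigens and globins, and GATA1 with its partner FOG1 (Zfpm1) replaces GATA2 as a progenitor takes the erythroid path. Erythropoietin binds its receptor (Epor), the kinase JAK2 then phosphorylates STAT5, and STAT5 is known to act on survival and iron uptake genes of erythroid precursors. Committed erythroid progenitors lose Sca-1, so that a Sca-1 gate holds the erythroid path only at its start. The early erythroid genes Car1 and Car2 encode carbonic anhydrases, and the later ones encode membrane proteins such as band 3.

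The WT library held 3747 barcodes with 55138419 UMIs and the KO library 7511 barcodes with 82466835 UMIs. Members carried 8134 to 65732 UMIs per cell in WT (median 19793.5) and 3533 to 48274 in KO (median 17594.5), against medians of 15362 and 9989.5 in the other KLS cells. The members together held 979117 UMIs in WT and 2163873 in KO, and levels are given in CPM, counts per 1000000 UMIs summed over a group of cells. The KLS libraries shared 290 barcodes, of which 11 in WT and 10 in KO passed the filter and 0 were members. No cell of the stromal libraries of the series met the rule, with 0 of 450 and 0 of 276 cells, which allows shares of up to 0.816% and 1.33%. Scrublet, a doublet caller, placed 1 WT member and 0 KO members among the highest doublet scores.

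The genotype labels were checked in the members themselves. Stat5a and Stat5b together stood at 149 CPM in WT members (126 to 175) and 22.2 CPM in KO members (16.4 to 29.4). The log2 difference was -2.75 (-3.25 to -2.27), which left 14.9% of the WT level (10.5% to 20.7%). A Stat5a or Stat5b UMI was found in 39 of 40 WT members and in 14 of 110 KO members. Of the 48 KO UMIs, 21 came from 3 cells. The other KLS cells of the KO library kept 8.60% of their WT level, 11.0 against 128 CPM.

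The rule genes themselves were a description of the choice. Klf1 ran from 1 to 25 UMIs per WT member (median 2) and from 1 to 19 per KO member (median 2.5), and its summed level was 183 CPM in WT and 223 CPM in KO. Gata1 ran from 1 to 15 UMIs (median 4) in WT and from 1 to 13 (median 2) in KO, at 176 and 158 CPM. Just inside the threshold, 5 WT and 17 KO members held exactly 1 UMI of each, and a Car1 UMI was found in 1 and 4 of these. Just outside it, 11 WT and 15 KO cells with both factors were left out for exactly 1 Dntt UMI. Those cells were at 3265 and 801 CPM of Car1, with a Car1 UMI in 8 and 6 cells. A further 11 and 10 cells with both factors held more Dntt, at 879 and 1405 CPM of Car1, beside 110 and 70.2 CPM of the lymphoid receptor gene Flt3. The 16 WT and 6 KO cells left out for Pf4 were at 8.04 and 8.92 CPM of Car1 and at 276 and 277 CPM of Itga2b, the platelet integrin. The edges thus held cells of different makeup: those lost to a single Dntt message had much Car1 as a sum, and those lost to Pf4 had little.

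Cells with only 1 of the 2 factors had less Car1 than the members. The 26 WT and 104 KO cells with Klf1 and no Gata1 were at 14.4 and 314 CPM of Car1, and the 186 and 410 cells with Gata1 and no Klf1 were at 4.02 and 80.4 CPM. A Car1 UMI was found in 1 and 32 of the former and in 6 and 27 of the latter. Those 32 KO cells had a median depth of 6424 UMIs, against 17594.5 in KO members, and held up to 112 Car1 UMIs. Members were 27.9% of all WT cells and 28.5% of all KO cells with a Car1 UMI. A shallow cell can miss the rule for want of 1 message, and the part of depth was not tested.

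The label was then set beside markers that the rule did not use. Car1 was named with the label from the start, so its level is a description and not an independent check. Car1, on chr3:14766216-14808368 (minus strand, GRCm38 with GENCODE M21 coordinates, as for all genes here), ran from 0 to 447 UMIs per WT member with a median of 11.5, and from 0 to 242 per KO member with a median of 9. It was detected in 24 of 40 WT and 76 of 110 KO members, and in 1.97% and 2.71% of the other KLS cells. The summed level was 2804 CPM in WT members and 2533 CPM in KO members, against 36.4 and 20.4 CPM in the other KLS cells. Late markers were thin: Alas2, the erythroid heme synthase, and Slc4a1 (band 3) had 0 UMIs. Markers of cells that a sort could carry along were counted too. The macrophage list summed to 46.0 and 67.9 CPM in members against 39.0 and 29.2 CPM in the other KLS cells, and 1 of its 9 measured genes was higher past 2-fold in both libraries. That gene was Slc40a1, the iron exporter ferroportin, which erythroid cells also make, at 39.8 and 56.4 CPM. The macrophage markers Cd5l, Adgre1 and Csf1r had 0 UMIs in members, and C1qb had 1 and 5. The plasma cell list summed to 42.9 and 43.9 CPM against 151 and 227, with 0 UMIs of Jchain and Mzb1, and the stromal list to 7.15 and 1.85 CPM against 12.2 and 6.65, with 0 UMIs of Col1a1, Cxcl12, Lepr and Pdgfra. The name erythroid-primed therefore rests on early genes.

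Set beside the other KLS cells of the same library, the members were high in surface and metabolic genes of the early erythroid cell and low in many of the myeloid and some of the lymphoid and stem genes measured. Since cells were chosen by expression, this is a description. Of 11893 genes measured in both libraries, 183 were higher past 2-fold in both (1.54%) and 341 were lower in both (2.87%). Here and below a fold is taken on the scale log2(CPM + 10), which understates the change of low genes, and a log2 difference is on that scale unless it is called raw. Within single libraries 1.85% of genes were higher and 3.82% lower in WT (5.67% in either direction), and 2.14% and 4.37% in KO (6.52%).

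Of 23 early erythroid genes measured, 19 were higher past 2-fold in both libraries and 1, Cnrip1, was lower. The median log2 difference of the list was 2.63 in WT and 2.73 in KO. Epor, the erythropoietin receptor, reached 87.8 CPM in WT members (70.3 to 108) and 97.5 in KO members (84.8 to 112), against 3.003 and 3.32 CPM in the other KLS cells. It ran from 0 to 11 UMIs in WT members and from 0 to 12 in KO members, and 27 of 40 and 64 of 110 cells held at least 1. Ermap, an erythroid membrane protein of the Scianna blood group, was at 183 and 273 CPM against 3.04 and 1.94. Rhd, the Rh blood group antigen, was at 112 and 130 CPM against 1.69 and 0.764, and its partner Rhag at 54.1 and 57.3 against 1.39 and 0.639. Each of these genes was found in few of the other cells, at most 3.33% of them, so that the gap between members and others was wide in both genotypes.

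Metabolic genes showed the same separation. Blvrb, a biliverdin reductase of red cells, was at 464 and 574 CPM in members and at 34.7 and 27.4 CPM in the other KLS cells. Aqp1, the red cell water channel, was at 256 and 302 CPM against 7.81 and 9.79. Car2 was less particular in its distribution: it stood at 1807 and 1621 CPM in members, and at 567 and 311 CPM in the other KLS cells, where 95.02% and 82.3% of cells held a UMI. By the size rule the 15 genes that stood out most in both libraries were Car1, Mt2, Aqp1, Ermap, Mt1, Ces2g, Gm15915, Blvrb, Rhd, Atp1b2, Tspo2, Cldn13, Epor, Slc25a21 and Tnfaip2. Mt1 and Mt2 encode metallothioneins, which bind zinc and copper, and stood at 345 and 195 CPM in WT members against 13.2 and 2.35 CPM in the other cells. Tspo2, a cholesterol transport protein of erythroid cells, was at 126 and 97.0 CPM against 1.41 and 1.17.

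Promoter sequences of 3 of these receptor and antigen genes are shown because they hold the letters AGATAA, or TTATCT on the other strand, that GATA factors bind. The sequences are the 120 bases before the RefSeq start (GRCm38.p6) at chr9:21963577-21963696 (minus strand) for Epor, chr4:134864416-134864535 (plus strand) for Rhd and chr9:21029312-21029431 (plus strand) for Icam4, an erythroid adhesion molecule. They run 5′ to 3′ in the direction of the gene, and capitals mark the match.
Epor: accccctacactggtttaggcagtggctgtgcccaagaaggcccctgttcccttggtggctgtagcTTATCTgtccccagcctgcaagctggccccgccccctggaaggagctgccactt
Rhd: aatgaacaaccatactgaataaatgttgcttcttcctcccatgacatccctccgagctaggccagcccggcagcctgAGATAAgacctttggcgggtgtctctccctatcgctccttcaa
Icam4: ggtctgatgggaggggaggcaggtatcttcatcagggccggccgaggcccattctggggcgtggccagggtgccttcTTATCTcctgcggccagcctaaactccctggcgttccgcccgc
The match lay 54 to 49 bases before the start in Epor and 43 to 38 bases before it in Rhd and Icam4. Over the 250 bases before the start, on both strands, 5 of 19 matched early erythroid genes held the GATA letters (26.3%), namely Epor, Icam4, Rhd, Sphk1 and Trim10, against 3090 of 27025 genes in the table (11.4%). Of 16 matched heme and iron genes, 2 did (12.5%), and of 18 matched stem genes, 0 did. Over the early erythroid and regulator lists together (37 matched genes), the GATA letters were in 24.3% against 11.4% of all genes. In the same 37 genes the KLF1 letters CCACACCC were in 5.41% against 3.68%, the STAT letters TTCNNNGAA in 13.5% against 8.13%, and the E-box CAGCTG in 8.11% against 14.7%. The STAT letters were also in 0 of the 18 stem genes. Matches are descriptions of letters and not binding sites. Promoters of Car1 and Cldn13 are named only.

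Among the regulators the pattern was narrower. Besides the rule genes, 2 of 18 measured were higher past 2-fold in both libraries: Zfpm1 (FOG1), at 197 and 243 CPM against 72.5 and 74.9, and Gfi1b, a repressor that erythroid and platelet precursors need, at 119 and 105 CPM against 28.4 and 20.4. The list's median log2 difference was 0.03 in WT and 0.15 in KO. Gata2, the progenitor GATA factor, remained abundant in the members at 252 and 183 CPM, above the 100.2 and 102 CPM of the other cells. Tal1 was at 124 and 119 CPM against 62.0 and 56.4, and Myb at 513 and 519 CPM against 392 and 397. Nfe2 did not set the members apart, at 121 and 88.7 CPM against 123 and 91.8.

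Some heme and iron genes were higher in the members, and globins were low in level. Of 21 heme and iron genes measured, 11 were higher past 2-fold in both libraries and 0 were lower, with medians of 1.01 and 1.03. Cpox, of the mitochondrial part of heme synthesis, was at 194 and 248 CPM against 33.7 and 31.7. Tfrc, the transferrin receptor CD71, was at 107 and 165 CPM against 22.7 and 28.6. The housekeeping synthase Alas1 lay the other way, at 17.4 and 18.02 CPM against 33.8 and 32.1. Of 14 late erythroid genes, 4 were higher in both libraries, among them Kel, the Kell antigen at 28.6 and 35.1 CPM. Of 4 globins measured, 3 were higher past 2-fold in both libraries, with medians of 1.30 and 1.76. Hba-a1 was at 43.9 and 69.3 CPM against 2.53 and 0.902, and Hbb-bs at 29.6 and 27.3 against 3.13 and 2.25. A single WT cell gave 51.2% of the WT Hba-a1 UMIs, and whether globin messages came from the cell or from free RNA was not tested.

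**Figure D1:**
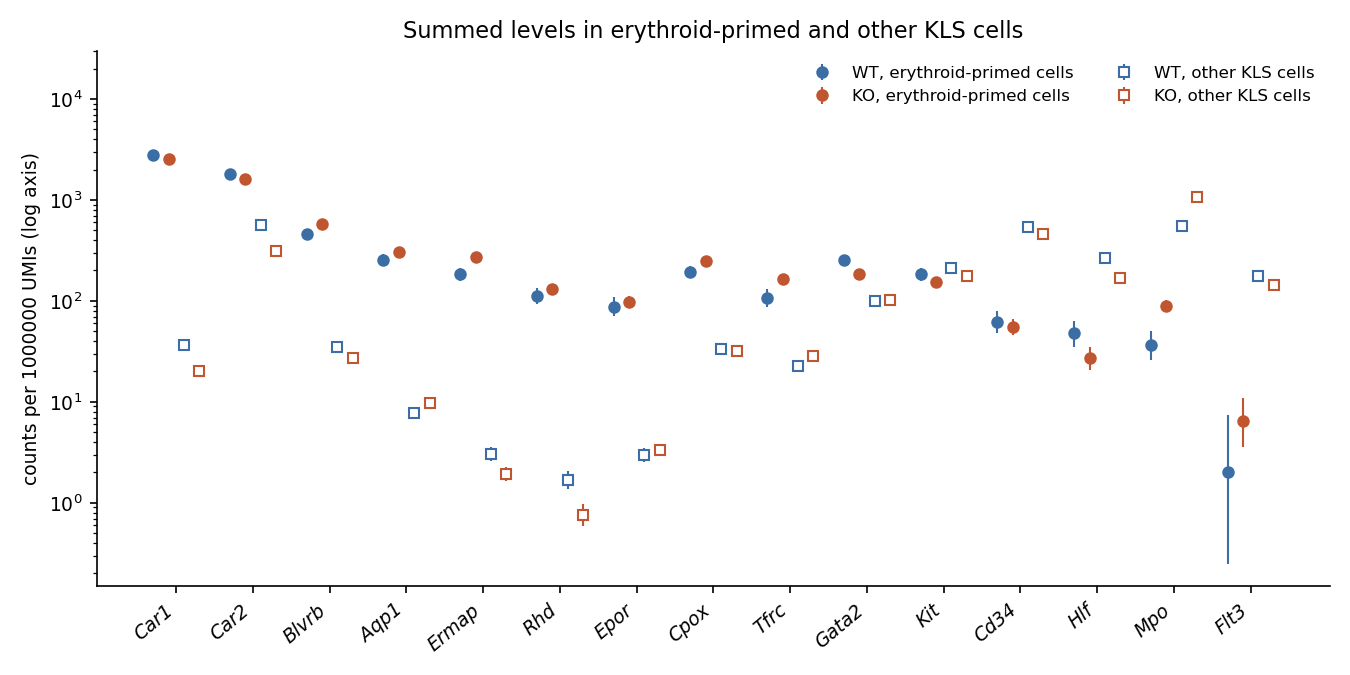
Summed levels of 15 genes in CPM (log axis) in erythroid-primed cells (filled circles) and other KLS cells (open squares) of the WT and KO libraries, with exact Poisson 95% intervals that cover counting error only. Erythroid genes from Car1 to Tfrc were higher in the members of both libraries, and Cd34, Hlf, Mpo and Flt3 were lower.

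By the size rule the 10 genes furthest below the other KLS cells were Mpo, Emb, Flt3, Satb1, Ccl3, Ctsg, Cd52, Cd34, Ccl4 and Cd53. Mpo, the neutrophil peroxidase, was at 36.8 and 89.7 CPM in members against 556 and 1074 CPM. Flt3 was at 2.04 and 6.47 CPM against 175 and 144, and Satb1, a lymphoid chromatin organizer, at 6.13 and 9.71 against 176 and 171. Cd34, a surface sialomucin of progenitors, was at 62.3 and 55.5 CPM against 534 and 464. Across lists, 10 of 18 myeloid genes and 6 of 13 lymphoid genes were lower past 2-fold in both libraries and 0 were higher. Spi1 (PU.1), the myeloid factor that opposes GATA1, was among them at 25.5 and 29.1 CPM against 134 and 133.

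Stem genes were only in part lower. Of 22 measured, 4 were lower in both libraries: Hlf, Mecom, Hoxa9 and Ly6a, the last of which encodes Sca-1, the antigen of the gate. Ly6a was at 19.4 CPM in the members of either genotype against 66.8 and 49.8 CPM in the other cells. Kit, the stem cell factor receptor, was at 184 and 155 CPM against 210.3 and 178. The megakaryocyte list was mixed as well, and not all of its genes are particular to platelets. Of 18 measured, Gp5 and Slc14a1 were higher in both libraries, at 40.9 and 48.5 CPM and at 83.7 and 82.7 CPM. The list's median was 0.25 in WT and -0.45 in KO. Among 12 mast and basophil genes Il1rl1, the IL-33 receptor, was higher at 43.9 and 53.1 CPM against 1.71 and 2.03, and Fcer1g, Mcpt8 and Prss34 were lower. Eosinophil Prg2 was in 0 members.

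The members were not uniform, and their Klf1 count ordered them. Classes of 1, of 2 to 3 and of 4 or more Klf1 UMIs held 15, 9 and 16 WT members and 36, 28 and 46 KO members. Their median depths were 17115, 17611 and 33831.5 UMIs in WT and 10451, 12561 and 28808 in KO, so that class and depth moved together, and the part of depth was not tested. Levels in CPM are shares of a cell's messages. Car1 was at 292, 1632 and 4229 CPM over the 3 WT classes and at 171, 1935 and 3451 CPM over the KO classes. Ermap was at 3.89, 88.0 and 287 CPM in WT and at 26.9, 136 and 392 in KO. Car1 and Ermap thus stood in the same order of classes in both genotypes.

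Epor stood at 42.8, 40.6 and 120.1 CPM in WT and at 19.6, 44.6 and 138 CPM in KO. Tfrc was at 7.78, 33.9 and 171 CPM in WT and at 26.9, 82.2 and 233 in KO. Gata1 was at 171, 183 and 176 CPM in WT and 159, 157 and 157 in KO. It is the other rule gene, so each member held at least 1 UMI, which sets a floor in the shallower classes. Gata2 was lowest in the top class, at 342, 427 and 167 CPM in WT and 387, 244 and 101 in KO. The stem factor Hlf was at 117, 33.9 and 20.9 CPM in WT and at 93.0, 32.9 and 5.27 in KO. Itga2b was at 167, 122 and 19.2 CPM in WT and at 201, 79.8 and 6.02 in KO. The top Klf1 class therefore had the most Car1, Ermap, Epor and Tfrc and the least Gata2, Hlf and Itga2b in both libraries.

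**Figure D2:**
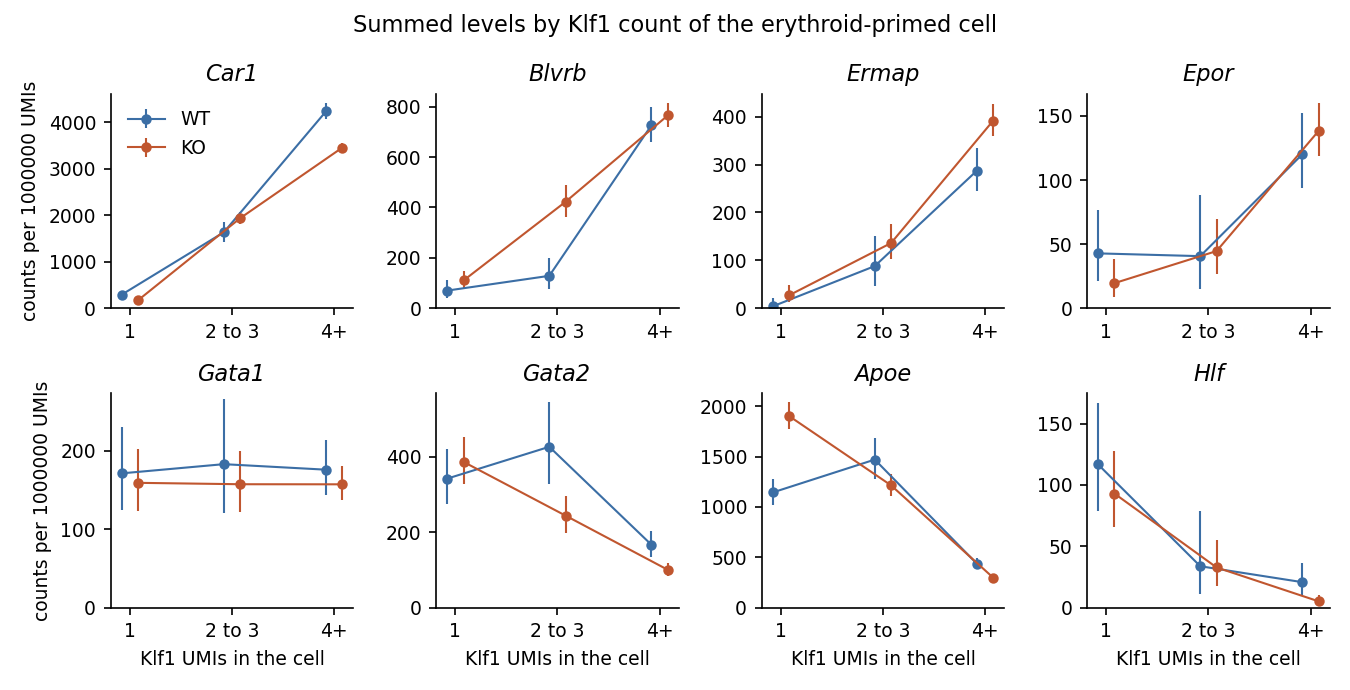
Summed levels in CPM (linear axes from 0, 1 panel per gene) over members with 1, 2 to 3, or 4 and more Klf1 UMIs, for the WT and KO libraries, with exact Poisson 95% intervals. Car1, Blvrb and Ermap were highest in the top Klf1 class of both genotypes, and Gata2, Apoe and Hlf were lowest there. Gata1 was level, but the rule asked for it in every member.

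A Car1 UMI divided the members in a similar way. Car1 was detected in 60.0% of WT members (43.3% to 75.1%) and 69.1% of KO members (59.6% to 77.6%). The median depth of members with Car1 was 24607.5 UMIs in WT and 24529.5 in KO, and without it 19154.5 and 10975.5. Rhd was at 161 and 159 CPM in members with Car1 and had 0 UMIs in those without. Blvrb was at 648 and 687 CPM with Car1 and at 37.2 and 73.0 without. Members without Car1 had more of the stem and platelet genes: Hlf was at 108 CPM in both libraries against 22.0 and 9.06 with Car1, and Itga2b at 196 and 232 CPM against 20.5 and 18.1. Gata1 hardly differed, at 180 and 161 CPM with Car1 and 166 and 144 without. Since the rule asked for a Gata1 UMI in every member, it sets a floor under that level in shallow cells, and the likeness is not a finding.

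Single cells showed how these genes met. All of Car1, Epor, Ermap and Rhd were detected in 11 of 40 WT and 44 of 110 KO members, and none of Car1, Epor and Ermap in 8 and 24. Any of the stem markers Hlf, Mecom and Procr was found in 15 WT and 37 KO members, together with Car1 in 4 and 15. Itga2b was found in 20 and 45 members, Mpo in 13 and 34, a mast marker (Cpa3, Ms4a2 or Mcpt8) in 12 and 30, and Flt3 in 2 and 10. The summed early erythroid list ran from 552 to 14857 CPM per WT cell (median 3330) and from 753 to 14013 CPM per KO cell (median 4810), and the stem list from 0 to 4959 (median 1038) and from 25.2 to 3154 (median 722). Over cells the early erythroid and stem sums had a Spearman rho of -0.67 in WT (40 cells) and -0.78 in KO (110 cells), and the early erythroid and heme sums 0.67 and 0.73. Klf1 and Car1 UMIs had a rho of 0.83 and 0.78. These are descriptions, since the cells of a library share its preparation and the counts share the cell's depth.

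**Figure D3:**
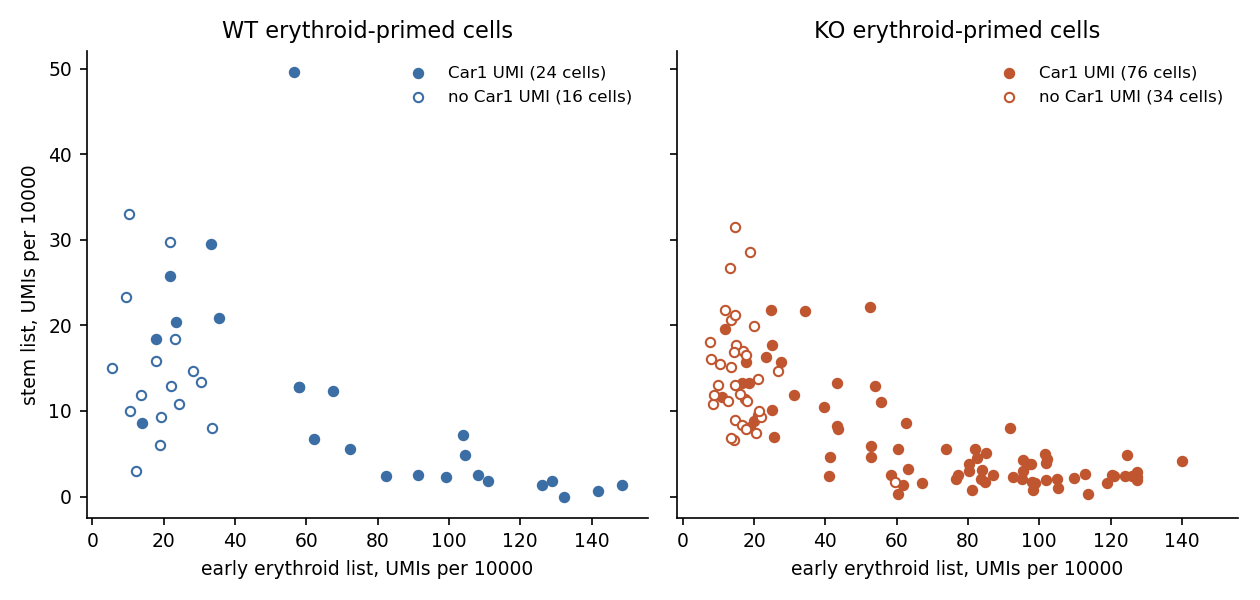
Each point is 1 erythroid-primed cell, with the summed early erythroid list on the x axis and the summed stem list on the y axis, both in UMIs per 10000, for WT (left) and KO (right). Filled points hold a Car1 UMI (24 WT and 76 KO cells), open points do not (16 and 34), and the cells rich in stem genes are mostly open points at the left.

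The first genotype comparison asked whether loss of STAT5 left more or fewer of these cells in the gate. Without equal depth the share was 1.25% of WT cells (0.896% to 1.70%) and 1.54% of KO cells (1.26% to 1.85%). With every cell thinned to 4500 UMIs before the rule, and 24 WT and 660 KO cells left out as shallower, it was 17 of 3169 cells in WT (0.536%, 0.313% to 0.858%) and 41 of 6498 in KO (0.631%, 0.453% to 0.855%). Of the 17 and 41 cells, 12 and 39 were also members at full depth. The rest were left out there for their Dntt or Pf4 UMIs. With another seed, 9 of 18 WT and 41 of 45 KO cells were members at full depth. The sets before and after thinning thus differed more in WT. The difference in member share was 0.0945 percentage points (-0.267 to 0.396), so no difference was detectable at this depth. Cells with a Car1 UMI after thinning, whether or not they met the rule, were 1.74% of WT (1.31% to 2.25%) and 3.03% of KO (2.63% to 3.48%), and these counting intervals did not overlap. As background, 1 of 1130 WT and 3 of 2819 KO cells with Dntt (0.0885% and 0.106%) held both Klf1 and Gata1 after thinning, against 1.42% and 0.644% unthinned. Fewer cells in another part of the KLS pool and more cells of this kind cannot be told apart from shares.

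The second comparison was of genes, KO against WT, within the members. Car1, Car2, Epor, Blvrb and Rhd differed by less than 1.5-fold between genotypes, single erythroid genes such as Sphk1, Ank1 and Klf3 were higher in KO, and a few stem, platelet and mast cell genes were lower. Of 6894 genes that reached 50 UMIs in the members of both libraries together, 147 were higher in KO past 1.5-fold (2.13%) and 148 were lower (2.15%), 4.28% in either direction, with a median of 0.02. In the other KLS cells, with far more UMIs, 0.302% of 12895 genes were higher and 0.396% lower (0.698% in either direction). Low sums are noisier, so those shares are not a measure of a greater effect in members.

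Of 21 early erythroid genes measured, 2 were higher in KO past 1.5-fold and 0 were lower. The list's median was 0.19, with 16 genes above 0, beside -0.07 for the same genes in the other KLS cells. Sphk1, which makes the lipid mediator sphingosine 1-phosphate, was at 66.4 CPM in WT (51.2 to 84.6) and 136 in KO (121 to 152), a log2 difference of 0.93. It was detected in 10 of 40 and 46 of 110 members, with at most 13 and 22 UMIs. Ank1, the ankyrin of the red cell skeleton, was at 34.7 CPM (24.1 to 48.5) and 69.3 CPM (58.7 to 81.3), a difference of 0.83. Sphk1 lost its call and turned to -0.17 when cells were thinned before the rule, and Ank1 fell short at 0.56 when cells with Dntt were admitted.

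The leading erythroid genes differed little within the members. Car1 had a log2 difference of -0.15 and Car2 of -0.16, beside -0.61 and -0.84 in the other KLS cells, both past the fold there. Epor had a difference of 0.14, Blvrb of 0.30 and Rhd of 0.19, beside 0.03, -0.26 and -0.12 in the other KLS cells. Ermap, at 0.55, and Hemgn, at 0.53, lay just under the fold. Thinning before the rule gave 17 WT and 41 KO members, of which 12 and 39 were members at full depth. In these cells Ermap was at 1.32 and Aqp1 at 1.64, while Rhd was at -0.35, Epor at -0.04 and Car2 at 0.05. Over the erythroid regulators and early genes together (37 genes), the median was 0.13 with 25 genes above 0. That median moved to 0.0058 when members had to have 0 Pf4 UMIs and to 0.0073 when they had to have a Car1 UMI, so it depended on which cells were counted. For Epor, the raw log2 ratio of 0.15 had a counting interval of -0.22 to 0.53.

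Of the 16 regulators measured, Klf3 alone passed the fold and 0 were lower. Klf3, a repressor that KLF1 is known to activate and that acts on the same CACCC letters, was at 34.7 CPM in WT (24.1 to 48.5) and 76.7 in KO (65.5 to 89.3), a difference of 0.96. It was detected in 16 of 40 and 60 of 110 members and ran to 6 and 7 UMIs, while the other KLS cells differed by -0.11. Gata2 was at 252 and 183 CPM, a difference of -0.44 that did not pass. That difference was -0.68, past the fold, among members with a Car1 UMI, but 0.04 when cells with Dntt were admitted and 0.45 when cells were thinned before the rule, so its direction was not stable. Zfpm1 had a difference of 0.29, Gfi1b of -0.17, Tal1 of -0.05 and Myb of 0.02.

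Heme, late and globin genes were higher in KO in a few cases. Of 20 heme and iron genes, Steap3, the ferrireductase of transferrin endosomes, passed the fold at 48.0 CPM in WT and 79.0 in KO (0.62), and 0 were lower, with a list median of 0.08. Tfrc, at 107 and 165 CPM, lay just under it at 0.57. Of 15 late genes measured, 2 were higher past 1.5-fold and 0 were lower, and the list's median was 0.00. Of 4 globins measured, Hbb-bt (12.3 and 48.5 CPM, 1.39) and Hba-a2 (12.3 and 29.6 CPM, 0.83) were higher, but single cells held 38.1% of the KO Hbb-bt UMIs and 66.7% of the WT Hba-a2 UMIs. The globin values thus rest on few cells.

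Several stem genes were lower in KO. Of 9 stem genes measured, 4 were lower past 1.5-fold and 0 were higher: Ifitm1 (-0.96), Mycn (-0.70), Hlf (-0.64) and Meis1 (-0.64). The list's median was -0.45, and -0.21 in the other KLS cells. Hlf was at 48.0 CPM in WT members (35.3 to 63.8) and 27.3 in KO members (20.8 to 35.2), and its difference in the other KLS cells was also -0.64, from 267 to 168 CPM. Without the top cell of each library the members differed by -0.54 in Hlf, short of the fold. In members without a Car1 UMI, Hlf was at 108 CPM in both libraries, and in those with Car1 at 22.0 and 9.06 CPM. Members without Car1 were 40.0% of WT and 30.9% of KO members, and the part of this mix in the stem gene differences was not tested. Ifitm1, an interferon-induced membrane protein, was at 272 and 135 CPM, and 1 WT cell gave 34.2% of its WT UMIs. Its call was lost at -0.56 when cells with Dntt were admitted, and its difference was 0.09 when cells were thinned before the rule.

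Platelet lineage genes leaned the same way. Of 10 measured, 2 were lower past 1.5-fold, 0 were higher and 9 lay below 0, with a median of -0.54 beside -0.02 in the other KLS cells. F2r, the thrombin receptor PAR1, was at 84.8 CPM (67.5 to 105) and 34.7 CPM (27.3 to 43.4), a difference of -1.09 in members and -0.22 in the others. It was detected in 30 of 40 WT and 46 of 110 KO members and fell short of the fold, at -0.34, when cells were thinned before the rule. Itga2b, at 73.5 and 57.3 CPM, did not pass. It was at 196 and 232 CPM in members without Car1 and at 20.5 and 18.1 CPM in those with Car1. The part of the mix of members with and without Car1 was not tested. Members with 0, 1 and 2 Pf4 UMIs numbered 28, 6 and 6 in WT and 94, 12 and 4 in KO, so Pf4, a rule gene, moved with genotype, and its part in these differences was not tested. With KO members weighted to the WT mix of Klf1 classes, F2r was at -1.06.

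Of 6 mast cell and basophil genes measured, 2 were lower in KO past 1.5-fold, 0 were higher and 5 lay below 0, with a median of -0.41 beside 0.03 in the other KLS cells. Ms4a2, a chain of the IgE receptor, was at 43.9 and 6.01 CPM (-1.75) and Lmo4, a LIM-domain factor, at 139 and 43.0 CPM (-1.49). Ms4a2 was found in 4 of 40 WT members, and 1 of them held 44.2% of its UMIs. Without the top cell of each library its difference was -1.30. A single WT cell with 76 UMIs held 55.9% of the Lmo4 UMIs, and without the top cells the Lmo4 difference was -0.57, short of the fold. It was also -0.57 when cells with Dntt were admitted.

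Genes of the STAT5 pathway were read beside Stat5a and Stat5b. Of 16 measured, 4 were lower past 1.5-fold, among them Stat5a, Stat5b and Ccnd2, and 1 was higher (Ccnd1), with a median of -0.15. Ccnd2 (cyclin D2) was at 218 CPM in WT (189 to 249) and 120.2 in KO (106 to 136), a difference of -0.81 beside -0.20 in the other KLS cells, and -0.52 when cells were thinned before the rule. Ccnd1 (cyclin D1) was at 7.15 and 27.3 CPM, a difference of 1.12 beside 1.01 in the others. The classical STAT5 target Cish was at 5.11 and 3.24 CPM, with a UMI in 5 of 40 and 6 of 110 members, too few for a statement. Pim1, another target, was at 67.4 and 99.8 CPM (0.50), and Bcl2l1 (Bcl-xL) at 12.3 and 6.01 CPM over 12 and 13 UMIs. Kit differed by -0.23.

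Mki67 and Top2a, which mark dividing cells, were detected in a larger share of KO members. After thinning to 4500 UMIs, which left 4 KO members out, Mki67 was found in 45.0% of WT members (29.3% to 61.5%) and 79.2% of KO members (70.3% to 86.5%), and Top2a in 60.0% (43.3% to 75.1%) and 84.9% (76.6% to 91.1%). Both pairs of counting intervals were apart. The other KLS cells went the same way, at 38.8% and 52.7% for Mki67 and at 52.1% and 68.0% for Top2a. Unthinned, Mki67 was found in 29 of 40 and 102 of 110 members at 348 and 523 CPM (0.57). No gene of the 20 G2/M and 20 S-phase genes measured passed the fold, with medians of 0.20 and 0.00, and 17 of the G2/M genes lay above 0, beside 10 above and 10 below 0 among the S-phase genes.

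**Figure D4:**
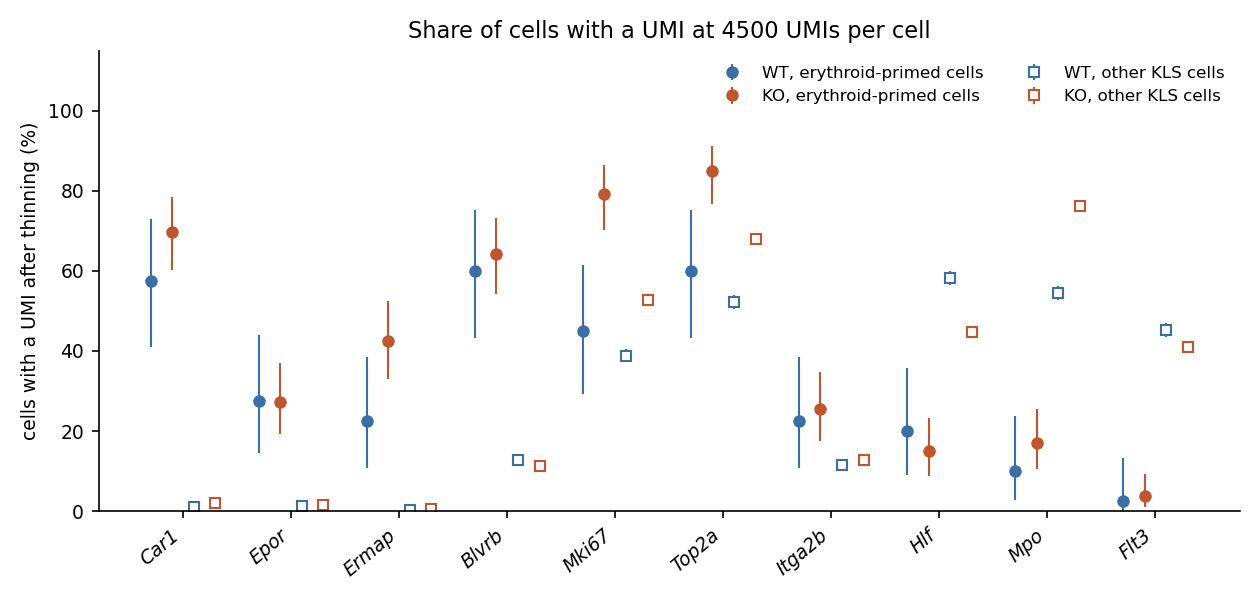
Percent of cells with a UMI of each gene after every cell was thinned to 4500 UMIs, for erythroid-primed cells (filled circles) and other KLS cells (open squares) of WT and KO, with exact Clopper-Pearson 95% intervals. Mki67 and Top2a were found in a larger share of KO than of WT members, Car1 was found in 57.5% of WT and 69.8% of KO members, and Mpo and Flt3 were rare in members of either genotype.

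The size rule named 10 genes higher and 10 lower in KO. The higher ones were AY036118, Mmp14, Gm42418, Gm42047, Myh10, Gm10076, Mpo, Tspan8, Mt1 and Lars2. Mmp14, a membrane-bound matrix protease on chr14:54431612-54445364, was at 10.2 CPM in WT members (4.90 to 18.8) and 42.1 in KO members (33.9 to 51.6), a difference of 1.36, with a UMI in 8 of 40 and 46 of 110 cells. Its level was 1.43 and 2.03 CPM in the other KLS cells. Myh10, nonmuscle myosin IIB, on chr11:68691559-68816632, was at 28.6 CPM (19.0 to 41.3) and 79.5 CPM (68.1 to 92.3), a difference of 1.21, with 0 to 5 UMIs per WT cell and 0 to 21 per KO cell. Tspan8, a tetraspanin, was at 20.4 and 54.1 CPM (1.07) and below 1 CPM in the other KLS cells of both libraries. These 3 genes were scarce outside the members, and the median member of either genotype had 0 UMIs of each.

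Mt1 was at 345 CPM in WT (309 to 384) and 720.0 in KO (685 to 757), a difference of 1.04. The other KLS cells also differed, by 1.12, from 13.2 to 40.5 CPM. Mt2 moved with it, at 195 and 374 CPM (0.91), and with Egr1, an immediate early gene at 34.7 and 75.3 CPM (0.93), these were the 3 of 18 stress genes past the fold, with 0 lower. Egr1 fell short of the fold at 0.33 among members with a Car1 UMI, at 0.52 with at least 2 UMIs of each factor and at 0.58 with 0 Pf4 UMIs. Mpo was at 36.8 and 89.7 CPM (1.09) and differed by 0.94 in the other KLS cells. Its difference in members was 0.17 when cells with Dntt were admitted and -0.55 when cells were thinned before the rule, and 1 KO cell gave 21.6% of its KO UMIs.

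The noncoding RNAs Gm42418 (386 and 981 CPM, 1.32) and AY036118 (9.19 and 46.2 CPM, 1.55) overlap on opposite strands of chromosome 17, and reads of the pair cannot be told apart without a stated strand rule. They differed by 1.06 and 0.94 in the other KLS cells. Lars2, a mitochondrial leucyl-tRNA synthetase, was at 37.8 and 87.8 CPM (1.03) and differed by 0.87 in the others. In members it was at 0.04 when cells were thinned before the rule. Gm42047 (50.1 and 133 CPM, 1.25) and Gm10076 (67.4 and 159 CPM, 1.13) are noncoding RNAs that differed by 0.44 and 0.78 in the others. All 5 genes thus lay above 0 in the other KLS cells too, and the part of library preparation was not tested.

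The lower genes were Lmo4, 4930519L02Rik, F2r, Ifitm1, Nme2, Parp9, Irf7, Dtnbp1, Ypel3 and Ifitm3. The noncoding RNA 4930519L02Rik was at 67.4 CPM in WT (52.1 to 85.8) and 21.7 in KO (16.0 to 28.9), a difference of -1.29 beside -0.19 in the other KLS cells. Irf7, the interferon regulatory factor, was at 62.3 and 28.7 CPM (-0.90) and was found in 9 of 40 WT and 29 of 110 KO members. A single WT cell held 32.8% of its WT UMIs, and its difference was 0.88 when cells were thinned before the rule and -0.56 over means of single cells. Ifitm3 was at 525 and 287 CPM (-0.85) and Parp9, an interferon-induced gene, at 52.1 and 23.1 CPM (-0.91), and these fell short of the fold at -0.35 and -0.38 with thinning. Ifitm3 was also short of it, at -0.53, over means of single cells. Irf7, Ifitm3 and Parp9 thus did not keep their calls under every alternative run.

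Dtnbp1, of the lysosome-related BLOC-1 complex, was at 79.7 and 38.4 CPM (-0.89) and Ypel3 at 63.3 and 29.6 CPM (-0.89). Both were lower in the other KLS cells as well, by -0.57 and -0.52. Nme2, a nucleoside diphosphate kinase, was at 72.5 and 33.7 CPM (-0.92) and overlaps the readthrough gene Gm20390 on the same strand, so its count is uncertain. Parp9 overlaps Dtx3l on the opposite strand. Outside the ranking, Gm47283 on the Y chromosome was at 607 and 61.0 CPM (-3.12) in members and at 598 and 80.4 CPM in the other KLS cells. Ddx3y, also on the Y chromosome, did not show a fall of that size. It was at 33.7 and 21.3 CPM in members, a difference of -0.48 beside 0.03 in the other KLS cells. Xist was at 716 and 809 CPM in members, so both libraries held female and male messages, and the labels do not give the sex of the mice.

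**Figure D5:**
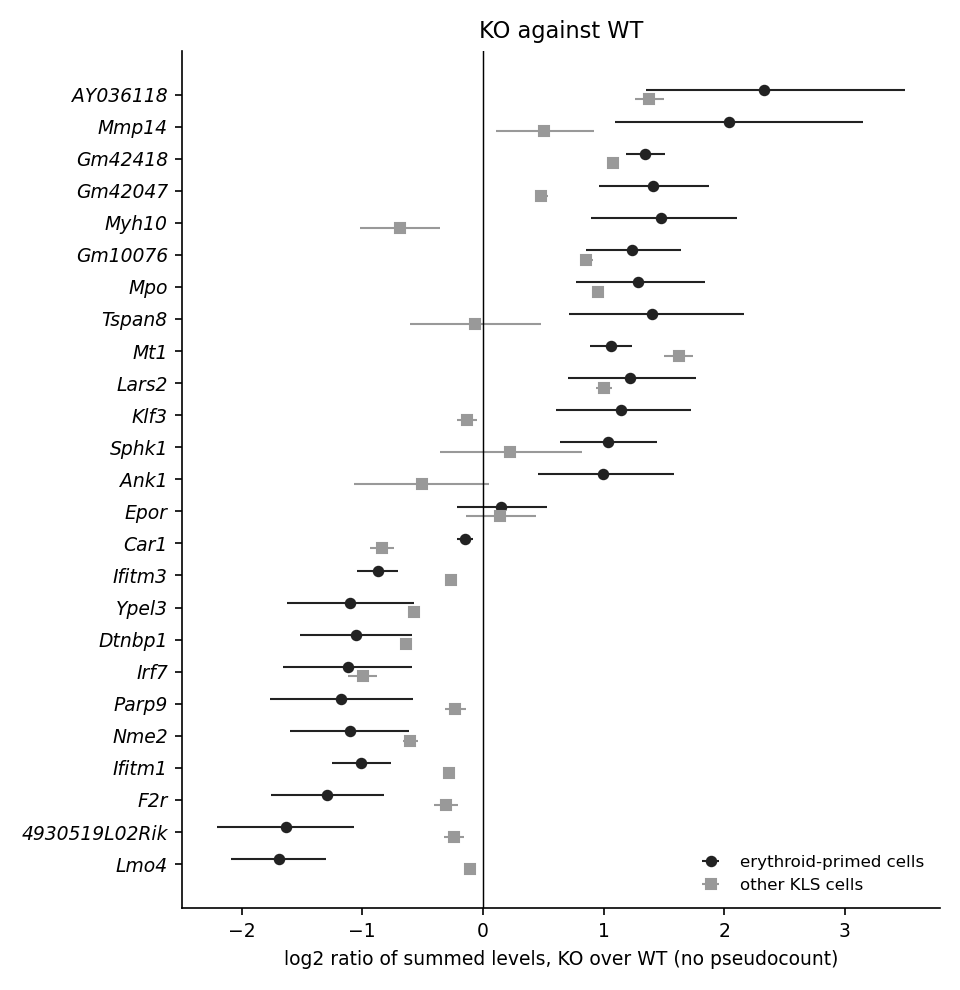
Raw log2 ratios of summed levels, KO over WT, for the 20 genes named by size and for Klf3, Sphk1, Ank1, Epor and Car1, in erythroid-primed cells (circles) and other KLS cells (squares), with exact conditional binomial 95% intervals that cover counting error only. Mt1, Gm42418 and Mpo were higher in KO in both sets of cells, Klf3 and Myh10 were higher in members and not in the others, and Epor and Car1 lay near 0 in members.

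Few growth and survival genes passed the fold, though most lay above 0. Of 20 ribosome biogenesis genes, Polr1b, a subunit of RNA polymerase I at 17.4 and 42.1 CPM (0.93), and Heatr1, at 35.7 and 61.0 CPM (0.63), were higher past 1.5-fold and 0 were lower. Of the 20 genes, 18 lay above 0. The list's median was 0.20 in members and 0.27 in the other KLS cells, beside 0.02 and -0.006 over all genes measured. Of 12 death and survival genes, 0 passed in either direction and 10 lay above 0, with a median of 0.08 beside 0.01 in the other KLS cells. Of 5 myeloid genes measured, Mpo was higher and Cst7 lower (25.5 and 12.5 CPM, -0.66, and -0.34 without the top cell of each library). Too few UMIs of lymphoid, eosinophil and stromal genes were present in members for any to be measured.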

How the data were processed

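Gene expression was measured by droplet single-cell RNA sequencing in 2 KLS libraries, 1 per genotype. The 2 stromal libraries of the series were used only for shared barcodes and to count cells that met the member rule. The deposited matrices hold raw UMI counts of 31053 genes per cell barcode, with no normalization by the authors. Cell Ranger and the build GRCm38 (mm10) are named in the submitters' processing notes, and software version 3.1.0 is given per the file headers. Cell calling and the strand rule are not given in the sources used here. Coordinates are those of GENCODE M21.

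Cells were kept with at least 500 genes, at most 10% mitochondrial UMIs and a barcode absent from both stromal libraries. This kept 3193 of 3747 WT and 7158 of 7511 KO barcodes. Members were chosen by their Klf1, Gata1, Pf4 and Dntt counts, and the members and all gene lists were chosen with earlier results of these data known. Counts were summed over cells and scaled to CPM, with exact Poisson 95% intervals. Ratios carry exact conditional binomial intervals and shares exact Clopper-Pearson intervals, and the difference of shares a Newcombe interval. All cover counting error only. A gene was called past 1.5-fold (KO against WT, at least 50 UMIs) or 2-fold (members against others) with a pseudocount of 10 CPM. No test was made with 1 library per group.

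Genes were named by size: the 10 largest differences in each direction for KO against WT (100 UMIs or more, detected in 5% or more of the higher library's members), and the 15 highest and 10 lowest for members against others. Hemoglobin, immunoglobulin, Y-linked, rule and Stat5 genes were left out of the ranking, as was Xist, and list genes could also be named. Some list genes are counted in their lists but not reported here by name. Doublets were not removed. Scrublet by its own threshold called 0 WT and 1 KO barcodes and so did not work here, and an alternative left out the highest scores at 0.8% per 1000 barcodes. For shares at equal depth cells were thinned to 4500 UMIs. The ratio and count steps were tested on simulated data. Alternatives covered filters, doublets, the member rule, depth, pseudocount, UMI minimum, scaling and summing. Another thinning seed, Dntt UMIs allowed, KO members with Stat5 UMIs left out, and each gene's top cell left out were added after seeing the data. Python 3.11.15, numpy 2.4.6, scipy 1.17.1, pandas 2.3.3, scanpy 1.11.5 and matplotlib 3.10.9 were used.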

Additional observations from a re-analysis of the deposited data

Results flagged for a closer look

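Among the listed and named genes, 3 had a raw log2 ratio of KO over WT on opposite sides of 0 in the erythroid-primed cells and in the remaining KLS cells, each with a counting interval that left out 0. The difference between the 2 sets of cells was not tested. Myh10 had a ratio of 1.47 in members and -0.69 in the others. Hba-a2 had 1.27 in members, where 1 WT cell held 66.7% of the WT UMIs, and -1.06 in the others. Cavin2, a caveolar coat protein of platelets, had -1.82 in members, over 16 WT and 10 KO UMIs, and 0.79 in the others.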

How the results depend on the processing

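The 295 genes past 1.5-fold between genotypes became 110 when cells were thinned before the rule (17 WT and 41 KO members), 670 with a pseudocount of 1 CPM, 466 with at least 20 UMIs and 52 with at least 200 UMIs. Their split of 147 higher and 148 lower became 217 and 107 of 6287 with 0 Pf4 UMIs, and 201 and 113 of 5961 with a Car1 UMI. It became 255 and 157 of 6894 over means of single cells, and 81 and 152 of 7905 with Dntt UMIs allowed. The 524 genes past 2-fold between members and others became 968 with at least 2 UMIs of each factor, 915 with a Car1 UMI and 1621 with a pseudocount of 1 CPM. In each of these runs 11893 genes were measured. The erythroid median of 0.13 over 37 genes became 0.0058 with 0 Pf4 UMIs and 0.0073 with a Car1 UMI. With thinning it was 0.36, over only 15 genes. Among the genes reported past the fold, Mpo (-0.55), Ifitm1 (0.093), Irf7 (0.88) and Sphk1 (-0.17) changed sign with thinning. Of the 17 WT and 41 KO members after thinning, 12 and 39 were members at full depth, so the cells compared changed as well as their depth. The Stat5 log2 difference ran from -3.25 to -2.66 and had no value with thinning, which left no KO UMI of Stat5a or Stat5b. The difference in member share stayed within its interval under each alternative run. No cause of these changes was tested. No paired analysis was possible because the labels give 1 library per genotype and no replicate numbers. Depth limits the member comparison, since the WT sum holds 979117 UMIs from 40 cells, and mice or preparations that differ cannot be told apart from genotype.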
